A study of Homo sapiens with 18 samples.

Results

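Sheared PC-3 cells that had spent 24 h in suspension were compared with sheared PC-3 cells that had spent 12 h in suspension, gene by gene, over all expressed genes. PC-3 is a human prostate cancer line from a bone metastasis. The members were the 6 libraries labelled as exposed to fluid shear stress at these times, 3 at 24 h and 3 at 12 h, of 18 libraries in all. Detached cells were pushed through a narrow syringe needle, then kept in serum-free medium with insulin, transferrin, selenium and albumin in wells coated against attachment. Both times therefore share detachment, shear and serum-free suspension, and both carry 1 batch date. The 6 static libraries of 24 h and 12 h, held in suspension without the needle passage, served to ask whether the change with time was that of suspended cells in general. Per the labels, libraries of both treatments that share a time and a replicate number derive from 1 pool of cells, and no pool spans both times. One cell line stands for the condition, and RNA was taken from the cytosolic fraction after detergent lysis, so a nuclear transcript counts only as far as it reached that fraction.

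Epithelial cells that lose their attachment stop receiving integrin signals and often leave the cell cycle or die. Such death after detachment is called anoikis. Cells that persist in suspension commonly engage stress programmes. The ATF4 pathway answers amino acid shortage and misfolded protein in the endoplasmic reticulum (ER), and NRF2 drives genes that detoxify peroxides and reactive carbonyls. Sterol shortage, in turn, activates SREBP2, the factor behind the cholesterol synthesis genes. Carcinoembryonic antigen family proteins are surface glycoproteins of epithelia that bind one another between cells and are frequently raised in carcinomas.

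The libraries held 16576539 to 21593071 counts, and counting error was small beside the spread between libraries for all but scarce genes. The 3 libraries of 24 h differed far more among themselves than those of 12 h. The biological coefficient of variation was 34.5% at 24 h and 16.4% at 12 h in sheared cells, against 19.6% at 24 h and 11.7% at 12 h in static cells. Among 5803 well expressed genes, 1205 (20.8%) varied at least 2-fold among the sheared 24 h replicates and 64 (1.1%) among the sheared 12 h replicates. Replicate 3 of 24 h stood apart on the first principal component (41.1% of the variance) and had the lowest scaling factor, 0.801. The nuclear RNA MALAT1 was at 29.0, 6.97 and 64.9 CPM (counts scaled to a common library size) in the 24 h libraries and at 38.0, 28.6 and 30.8 CPM in the 12 h libraries. NEAT1, another nuclear RNA, had 158, 42.4 and 385 CPM at 24 h and 129, 133 and 91.7 CPM at 12 h. Both were highest in replicate 3 and lowest in replicate 2 of 24 h, and the summed level of 5 nuclear-retained RNAs ran from 146 to 550 CPM at 24 h and from 269 to 326 CPM at 12 h. Not all members shared that order. TUG1 had 106, 70.4 and 64.2 CPM in 24 h replicates 1, 2 and 3, and OIP5-AS1 58.8, 26.1 and 33.7 CPM. The part of nuclear RNAs in the results below was not tested.

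The cells carried the marker profile of the line. The 13 markers of this epithelial line, VIM, CD44 and CAV1 among them, summed to 11000 to 17200 CPM at 24 h and 6630 to 8830 CPM at 12 h. Of 12 androgen-dependent prostate markers 7 were tested. They summed to 400 to 468 CPM at 24 h and 318 to 387 CPM at 12 h, mostly from SLC45A3, HOXB13 and TMPRSS2, and KLK2 had 0 counts in all 6 libraries. Of 15 haematopoietic markers 2 were tested, CD68 and LYZ, and the others stayed below 1 CPM in every library. Fibroblast and endothelial markers were tested for 6 of 14 and summed to 81.0 to 115 CPM at 24 h and 63.2 to 79.6 CPM at 12 h, led by PECAM1 and COL1A1.

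Of 14190 genes tested, 9 (0.0634%) differed, 8 higher at 24 h (0.0564%) and 1 lower (0.00705%), at an adjusted p below 0.05 (edgeR quasi-likelihood test, Benjamini-Hochberg adjustment over all genes). The genes that rose encode carcinoembryonic antigen relatives (CEACAM5, CEACAM6), a protease of the plasminogen system and a protease inhibitor (PLAT, SERPINE2), a calcium-binding protein (S100A9), 2 redox enzymes (GPX2, AKR1C1) and a glutathione-degrading enzyme (CHAC1). A pseudogene, TMED10P1, fell. CPM is a share of the RNA of a whole sample, so a change in how many cells carry a transcript and a change in its amount per cell cannot be told apart. Without adjustment, 1167 genes (8.22%) were higher and 943 (6.65%) lower at p below 0.05, and 1630 genes (11.5%) had all 24 h libraries above all 12 h libraries, while 1556 (11%) had them all below. The DESeq2 test, run as an alternative, called 343 genes higher (2.42%) and 131 lower (0.923%), all 9 genes among them. Leaving out 24 h replicate 1 or any single 12 h library left 0 calls, while leaving out 24 h replicate 2 gave 248 higher and 51 lower and leaving out 24 h replicate 3 gave 42 higher and 10 lower, each with all 9 genes among them.

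**Figure D1:**
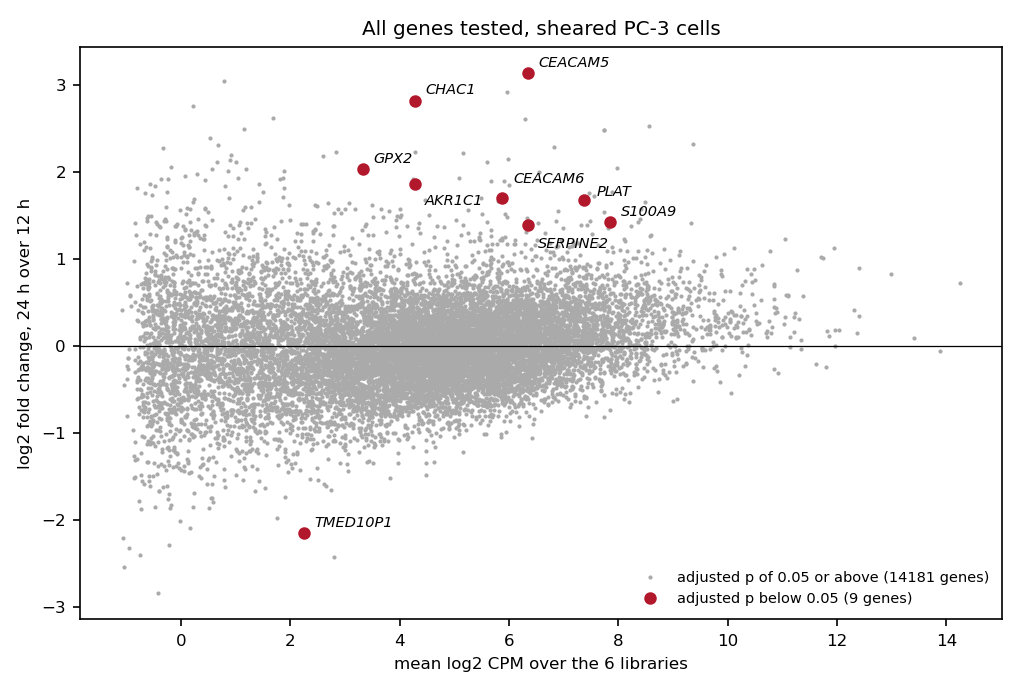
Log2 fold change of 24 h over 12 h (vertical) against the mean log2 CPM over the 6 sheared libraries (horizontal), 1 point a gene. The 9 genes past the threshold are named: 8 lie above 0, led by CEACAM5 at 3.13, and TMED10P1 lies at -2.15.

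CEACAM5 (Gene ID 1048, chromosome 19), the carcinoembryonic antigen itself, had the largest rise among the 9. Its level was 208, 92.3 and 161 CPM at 24 h, against 19.9, 17.8 and 14.5 CPM at 12 h, which is 3.13 ± 0.32 on the log2 scale (SE of the fold change, adjusted p = 0.0197). The means were 154 ± 58.3 CPM at 24 h and 17.4 ± 2.76 CPM at 12 h (SD, n = 3 each), and every 24 h library lay above every 12 h library. CEACAM6 (Gene ID 4680), its neighbour in the family and on the same chromosome, had 80.7, 82.7 and 123 CPM at 24 h, against 31.9, 28.2 and 27.2 CPM at 12 h, a log2 fold change of 1.70 ± 0.23 (adjusted p = 0.0442). CEACAM1, another member, had 17.4, 13.1 and 22.1 CPM at 24 h and 9.01, 9.36 and 6.22 CPM at 12 h, without overlap but at an adjusted p of 0.159. Family members share sequence, so reads could in part be split among them.

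PLAT (Gene ID 5327), the tissue plasminogen activator that turns plasminogen into plasmin, had 232, 334 and 240 CPM at 24 h, against 69.3, 95.1 and 85.2 CPM at 12 h. Its log2 fold change was 1.68 ± 0.23 (adjusted p = 0.0442). SERPINE2 (Gene ID 5270), a secreted inhibitor of thrombin and of plasminogen activators, rose beside it, with 126, 130 and 118 CPM at 24 h, against 43.9, 48.4 and 49.5 CPM at 12 h (1.39 ± 0.19, adjusted p = 0.0442). The protease and the inhibitor thus both rose, and SERPINE2 varied little within either time. The urokinase gene PLAU had 521, 674 and 1790 CPM at 24 h and 306, 329 and 478 CPM at 12 h, with an adjusted p of 0.192. S100A9 (Gene ID 6280), a calcium-binding protein of squamous epithelia and myeloid cells, had 330, 359 and 381 CPM at 24 h, against 128, 133 and 135 CPM at 12 h (1.42 ± 0.19, adjusted p = 0.0442). Of the haematopoietic markers, CD68, a lysosomal glycoprotein of macrophages, had 100, 72.0 and 127 CPM at 24 h and 51.4, 48.3 and 32.2 CPM at 12 h (adjusted p = 0.131). LYZ, the lysozyme gene, had 0.790, 1.10 and 0.801 CPM at 24 h and 0.219, 0.235 and 0.323 CPM at 12 h (adjusted p = 0.170). Both had all 24 h libraries above all 12 h libraries, while PTPRC, which marks nucleated blood cells, stayed at 0 to 0.290 CPM. The 15 markers summed to 75.1 to 129 CPM at 24 h and 33.5 to 52.3 CPM at 12 h, mostly from CD68. The part of such cells in the S100A9 result was not tested.

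**Figure D2:**
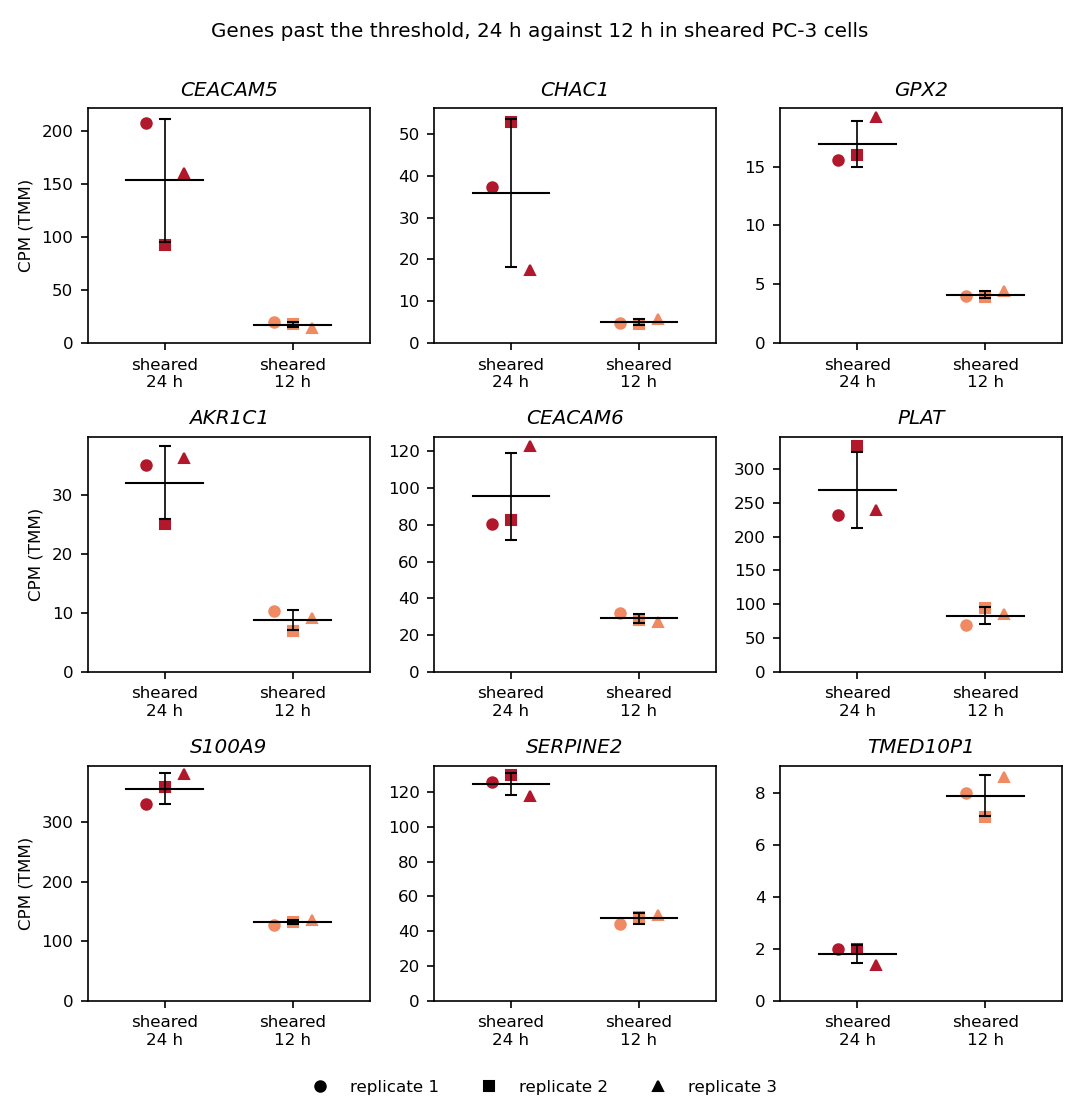
Level in CPM (vertical, from 0) of the 9 genes past the threshold in each sheared library, 24 h left and 12 h right. Symbols mark the replicate, lines the mean and whiskers the SD of 3 libraries; in none of the 9 panels do the times overlap.

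The redox genes were led by GPX2 and AKR1C1, members of a list of NRF2 targets. GPX2 (Gene ID 2877, chromosome 14), a glutathione peroxidase of epithelia that reduces peroxides, had 15.6, 16.0 and 19.2 CPM at 24 h, against 3.99, 3.90 and 4.42 CPM at 12 h (2.03 ± 0.25, adjusted p = 0.0442). AKR1C1 (Gene ID 1645, chromosome 10), an aldo-keto reductase that inactivates progesterone and reactive aldehydes, had 35.2, 25.1 and 36.3 CPM at 24 h, against 10.3, 6.96 and 9.08 CPM at 12 h (1.86 ± 0.26, adjusted p = 0.0480). For both genes all 3 libraries of 24 h lay above all 3 of 12 h. AKR1C2 had 7.38, 4.47 and 6.12 CPM at 24 h and 1.69, 1.60 and 1.75 CPM at 12 h (adjusted p = 0.0912), and AKR1C3 had 77.3, 67.1 and 88.7 CPM at 24 h and 42.3, 36.0 and 39.3 CPM at 12 h (adjusted p = 0.112). These reductases are close in sequence and their counts are uncertain to that extent.

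Of 29 NRF2 targets tested, 2 rose and 0 fell past the threshold, and DESeq2 called 7 higher and 0 lower. At an unadjusted p below 0.05, 14 were higher and 1 lower. All 24 h libraries lay above all 12 h libraries in 11 (37.9%) and below them in 1 (3.45%). Over all genes tested these shares were 11.5% and 11%. At an unadjusted p below 0.05, 8.22% of all genes were higher and 6.65% lower. The edgeR test called 0.0564% of them higher and DESeq2 2.42%. The same shares apply to the lists below. For NRF2 targets the median log2 fold change was 0.58, against -0.01 over all genes tested. Relative to the 12 h mean, the list's median was 0.46, 0.39 and 0.61 in 24 h replicates 1, 2 and 3, the narrowest range among lists of at least 5 tested genes. SLC7A11, the carrier that imports cystine for glutathione synthesis, had 51.7, 34.7 and 13.8 CPM at 24 h and 28.6, 25.1 and 20.9 CPM at 12 h, with overlapping groups.

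CHAC1 (Gene ID 79094, chromosome 15), which cleaves glutathione and is a classical target of ATF4, had 37.4, 52.9 and 17.4 CPM at 24 h, against 4.70, 4.61 and 5.81 CPM at 12 h. Its log2 fold change was 2.82 ± 0.38 (adjusted p = 0.0442), with replicate 3 the lowest of the 24 h libraries. Of 34 genes of the ATF4 response and tRNA synthetases tested, CHAC1 alone rose past the threshold and 0 fell. DESeq2 called 8 higher and 0 lower, and 14 were higher and 0 lower at an unadjusted p below 0.05. In 17 (50%, against 11.5% of all genes) all 24 h libraries lay above all 12 h ones. The list's median was 0.55, and 0.55, 0.65 and 0.22 in 24 h replicates 1, 2 and 3. NUPR1, a stress-induced chromatin protein, had 101, 101 and 54.0 CPM at 24 h and 28.5, 22.7 and 17.4 CPM at 12 h (adjusted p = 0.0561). GDF15, a secreted stress cytokine, had 240, 345 and 436 CPM at 24 h and 133, 146 and 117 CPM at 12 h (adjusted p = 0.0918). DDIT3, the pro-apoptotic factor CHOP, had 55.4, 28.0 and 102 CPM at 24 h and 13.7, 15.1 and 10.9 CPM at 12 h (adjusted p = 0.0935). In each of these genes the times did not overlap, although replicate 3 was lowest for NUPR1 and highest for GDF15 and DDIT3.

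The promoters of the genes that lead these lists are shown because each list is named for a factor with a known binding motif. The sequences are the 250 bases before the RefSeq gene start (GRCh38.p14), 5′ to 3′ on the gene's strand, with motif matches in capitals. GPX2 lies on the minus strand at chr14:64942746-64942995 and CHAC1 on the plus strand at chr15:40953221-40953470.
GPX2: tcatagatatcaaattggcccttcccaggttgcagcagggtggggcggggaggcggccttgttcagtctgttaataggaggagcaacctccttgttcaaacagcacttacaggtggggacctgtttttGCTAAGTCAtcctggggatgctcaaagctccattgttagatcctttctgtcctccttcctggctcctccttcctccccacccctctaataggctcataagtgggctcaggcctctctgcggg
CHAC1: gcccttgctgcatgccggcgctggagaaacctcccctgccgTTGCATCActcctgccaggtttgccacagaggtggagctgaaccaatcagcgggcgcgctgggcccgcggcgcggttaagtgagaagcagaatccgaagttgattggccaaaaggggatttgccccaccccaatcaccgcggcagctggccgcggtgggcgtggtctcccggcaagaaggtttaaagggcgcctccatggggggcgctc
Searched on both strands, the antioxidant response element core TGACNNNGC was found once before GPX2, on the opposite strand, 122 to 114 bases before the start. It occurred in 6 of the 21 NRF2 target promoters in the table, in 11% of all 27305 promoters of this length and in 12.0% of those of tested genes. The ATF4 composite element core TGATGNAA was found once before CHAC1, on the opposite strand, 209 to 202 bases before the start. It occurred in 4 of 28 promoters of the ATF4 list, in 3.19% of all promoters and in 1.38% of those of tested genes. The AKR1C1 promoter held no match to the antioxidant motif in these letters. A match is a description of the sequence and not evidence of binding.

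The gene that fell, TMED10P1 (Gene ID 286102), is a transcribed pseudogene of TMED10, which encodes a cargo receptor of the early secretory pathway. It had 1.98, 1.98 and 1.38 CPM at 24 h, against 7.98, 7.06 and 8.62 CPM at 12 h (-2.15 ± 0.31, adjusted p = 0.0484). Reads of the parent gene could be assigned to it. TMED10 itself had 249, 260 and 484 CPM at 24 h and 262, 240 and 205 CPM at 12 h, with overlapping groups (adjusted p = 0.442).

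The median of the sterol synthesis list lay above its 12 h level in all 3 libraries of 24 h, though single members such as PMVK, LSS and INSIG1 had a 24 h library below all 12 h libraries. Of 25 tested, 0 passed the edgeR threshold in either direction, 15 were higher and 0 lower at an unadjusted p below 0.05, and DESeq2 called 6 higher and 0 lower. All 24 h libraries lay above all 12 h libraries in 12 of them (48%, against 11.5% of all genes). The median log2 fold change was 0.69, and 0.93, 0.52 and 0.40 in 24 h replicates 1, 2 and 3, so replicate 1 was highest here. FDPS, which makes farnesyl diphosphate, had 454, 359 and 320 CPM at 24 h and 181, 186 and 158 CPM at 12 h (adjusted p = 0.0985). FDFT1, the squalene synthase that commits farnesyl diphosphate to sterols, had 188, 133 and 194 CPM at 24 h and 84.1, 83.2 and 63.2 CPM at 12 h (adjusted p = 0.102). Squalene epoxidase, SQLE, had 315, 176 and 226 CPM at 24 h and 138, 128 and 104 CPM at 12 h (adjusted p = 0.159). The early enzyme HMGCS1, with 241, 83.9 and 151 CPM at 24 h and 96.5, 85.0 and 84.3 CPM at 12 h, overlapped because replicate 2 of 24 h stayed at the 12 h level.

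Epithelial genes, which cover keratins, claudins and other junction proteins, had the largest share of members without overlap among the lists of at least 5 tested genes. In 18 of 34 (52.9%, against 11.5% of all genes) all 24 h libraries lay above all 12 h libraries, and 0 lay wholly below. None passed the edgeR threshold, 18 were higher and 0 lower at an unadjusted p below 0.05, and DESeq2 called 6 higher and 0 lower. The median was 0.62, and 0.31, 0.37 and 0.94 in 24 h replicates 1, 2 and 3. KRT15, a basal keratin, had 242, 272 and 399 CPM at 24 h and 103, 100 and 72.6 CPM at 12 h (adjusted p = 0.0522). MUC1, a transmembrane mucin, had 101, 160 and 165 CPM at 24 h and 52.0, 58.8 and 48.0 CPM at 12 h (adjusted p = 0.0772). The tight junction gene CLDN4 had 1070, 1360 and 1330 CPM at 24 h and 536, 700 and 607 CPM at 12 h (adjusted p = 0.112). E-cadherin, CDH1, had 229, 222 and 278 CPM at 24 h and 219, 207 and 173 CPM at 12 h, a log2 fold change of 0.27 ± 0.20. The mesenchymal filament gene VIM had 369, 135 and 696 CPM at 24 h and 453, 255 and 155 CPM at 12 h, so that its spread within each time exceeded the difference between them.

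Of 41 interferon-stimulated genes tested, 0 passed the edgeR threshold, 16 were higher and 0 lower at an unadjusted p below 0.05, and DESeq2 called 8 higher and 0 lower. The list had 11 members (26.8%, against 11.5% of all genes) with all 24 h libraries above all 12 h libraries, and a median of 0.30. OAS1, an antiviral enzyme that senses double-stranded RNA, had 112, 99.4 and 150 CPM at 24 h and 46.5, 48.5 and 49.5 CPM at 12 h (adjusted p = 0.0772). IRF9, the DNA-binding subunit of the interferon-induced ISGF3 complex, had 39.2, 55.5 and 43.5 CPM at 24 h and 24.1, 20.9 and 22.6 CPM at 12 h (adjusted p = 0.114). Both lay above 12 h in every library. ISG15, a ubiquitin-like modifier, had 148, 270 and 321 CPM at 24 h and 134, 160 and 151 CPM at 12 h, and replicate 1 of 24 h overlapped the 12 h range. MHC class I genes had a median of 0.49, with 5 of 17 (29.4%, against 11.5% of all genes) wholly above 12 h. Of these 17, 0 were called by edgeR, 6 were higher and 0 lower at an unadjusted p below 0.05, and 3 were higher by DESeq2. Among them HLA-C, which presents peptides, had 142, 180 and 300 CPM at 24 h and 81.5, 113 and 85.1 CPM at 12 h (adjusted p = 0.147).

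Genes of the unfolded protein response of the ER had a median of 0.48, with 8 of 23 (34.8%, against 11.5% of all genes) wholly above 12 h. Of these 23, 0 were called by edgeR, 8 were higher and 0 lower at an unadjusted p below 0.05, and 5 were higher by DESeq2. HERPUD1, which serves the degradation of misfolded ER proteins, had 149, 66.2 and 259 CPM at 24 h and 41.9, 38.1 and 38.2 CPM at 12 h (adjusted p = 0.110). Replication-dependent histone genes had the largest median among lists of at least 5 tested members, 1.17. Of the 14 histone genes tested, 6 (42.9%, against 11.5% of all genes) lay wholly above 12 h. Their medians in 24 h replicates 1, 2 and 3 were 1.30, 0.10 and 1.56, so replicate 2 stayed near the 12 h level. For histones 0 were called by edgeR, 9 were higher and 0 lower at an unadjusted p below 0.05, and 6 were higher by DESeq2. H2BC12, a core histone, had 257, 248 and 319 CPM at 24 h and 167, 125 and 132 CPM at 12 h (adjusted p = 0.131).

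Without replicate 3 of 24 h the list medians were 0.43 for NRF2 targets, 0.54 for the ATF4 list, 0.76 for sterol genes, 0.34 for epithelial genes, 0.28 for interferon-stimulated genes, 0.11 for MHC class I genes, 0.31 for ER genes and 0.82 for histones. All 8 thus remained above 0, and the largest fall was that of MHC class I genes. Other lists differed in sign between the 3 libraries of 24 h, which is shown in the plot of list medians. Hypoxia targets had a median of 0.09 over the comparison, made of -0.16, -0.66 and 0.74 in replicates 1, 2 and 3. Genes of NF-kB and inflammatory cytokines had 0.10, -0.52 and 0.92, and immediate early genes 0.31, -0.25 and 1.00. The mesenchymal list had 0.19, -0.56 and 0.93. In each of these lists replicate 3 was highest and replicate 2 lowest, the order also seen in MALAT1 and NEAT1 but not in TUG1 or OIP5-AS1. HK2, the hexokinase induced by hypoxia, had 283, 129 and 525 CPM at 24 h and 448, 434 and 234 CPM at 12 h. ATF3, a stress-induced transcription factor, had 51.0, 19.5 and 108 CPM at 24 h and 42.1, 35.6 and 25.6 CPM at 12 h. CCN2, a target of the mechanosensitive YAP factor, had 7.70, 2.27 and 4.08 CPM at 24 h and 6.56, 4.85 and 3.00 CPM at 12 h. For all 3 genes the groups overlapped. The list of YAP/TAZ targets, to which CCN2 belongs, had medians of -0.08, -0.55 and -0.02 in replicates 1, 2 and 3. Of its 25 tested members, 6 (24%, against 11% of all genes) lay wholly below 12 h and 0 wholly above. None of the 25 passed the edgeR or the DESeq2 threshold, with 1 higher and 4 lower at an unadjusted p below 0.05.

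**Figure D3:**
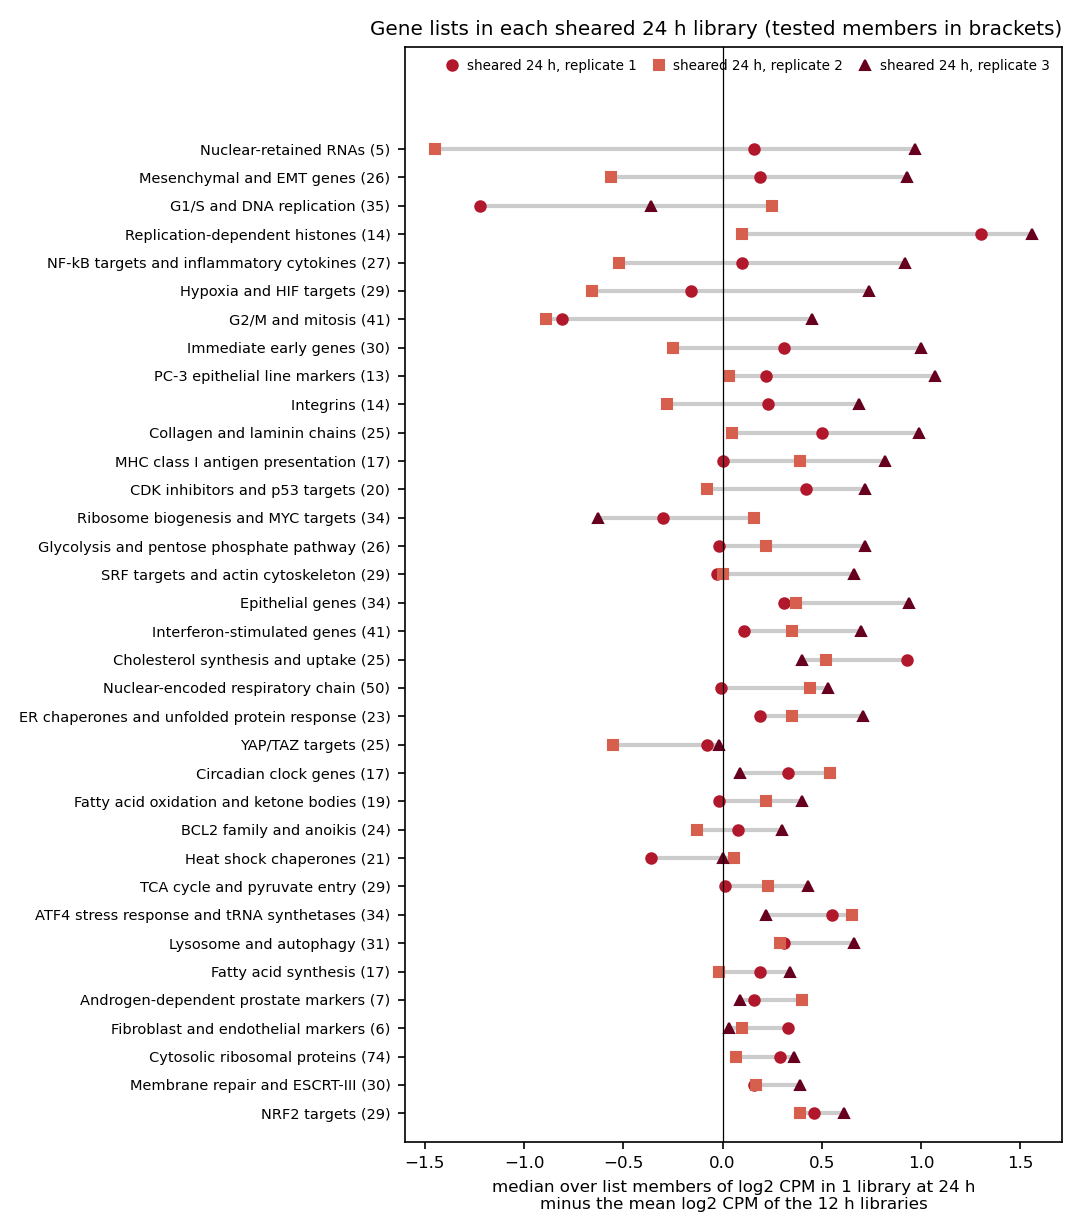
Median over the tested members of each gene list of log2 CPM in 1 sheared 24 h library minus the mean log2 CPM of the 12 h libraries (horizontal), 1 row a list, 1 symbol a replicate of 24 h, and rows ordered by the range of the 3 medians. Sterol, NRF2 and epithelial genes lie right of 0 in all 3 libraries, while hypoxia and mitosis genes lie on both sides.

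Cell cycle genes were the second group that depended on the library. For the 41 G2/M and mitosis genes the median log2 fold change was -0.34, with 5 (12.2%) wholly below 12 h, near the 11% of all genes tested, and 0 wholly above. In replicates 1, 2 and 3 of 24 h their median was -0.81, -0.89 and 0.45, and the overall median was -0.14 without replicate 1, -0.06 without replicate 2 and -0.87 without replicate 3. None passed the edgeR or the DESeq2 threshold, and 0 were higher and 4 lower at an unadjusted p below 0.05. CCNF, a cyclin of a ubiquitin ligase, had 20, 21.3 and 23.7 CPM at 24 h and 37.0, 41.6 and 31.5 CPM at 12 h (adjusted p = 0.165). FOXM1, the transcription factor of the mitotic programme, had 137, 170 and 238 CPM at 24 h and 297, 301 and 307 CPM at 12 h (adjusted p = 0.215). Both lay below 12 h in every 24 h library, replicate 3 included. CDK1, the kinase that starts mitosis, had 105, 187 and 593 CPM at 24 h and 287, 268 and 220 CPM at 12 h, so it was below the 12 h range in replicates 1 and 2 and above it in replicate 3. The 35 genes of G1/S and DNA replication had a median of -0.30, and -1.22, 0.25 and -0.36 in replicates 1, 2 and 3, an order that differs from that of mitosis genes. Their median was 0.01 without replicate 1, -0.68 without replicate 2 and -0.25 without replicate 3. None of those 35 passed either threshold, with 0 higher and 2 lower at an unadjusted p below 0.05. The CDK inhibitor gene CDKN1A had 68.8, 36.2 and 88.4 CPM at 24 h and 43.5, 39.0 and 63.1 CPM at 12 h, with overlapping groups (adjusted p = 0.593).

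Whether the change with time was that of suspended cells in general was asked by subtracting the change of static cells from that of sheared cells, with the 6 pools as blocks. The printed changes of sheared and of static cells come from separate fits without blocks. They need not subtract exactly to the difference from the joint fit. Static cells had 1963 genes higher (13.6%) and 1988 lower (13.8%) at 24 h of 14412 tested. The larger number of calls in static cells goes with their smaller spread and does not by itself show a larger change. All 9 genes past the threshold in sheared cells had the same direction in static cells, for example 3.70 for CEACAM5, 1.62 for CHAC1, 1.63 for GPX2 and 1.84 for SERPINE2 on the log2 scale. For none of these 9 did the difference pass the threshold, and the largest of them in size, for CHAC1, was 1.09 ± 0.43 (adjusted p = 0.744). The sheared and static medians lay close for sterol genes (0.69 sheared, 0.65 static), NRF2 targets (0.58 sheared, 0.46 static) and epithelial genes (0.62 sheared, 0.46 static). They lay apart for G2/M genes (-0.34 sheared, -1.43 static), G1/S genes (-0.30 sheared, -1.05 static) and interferon-stimulated genes (0.30 sheared, 0.87 static). The ATF4 list had 0.55 in sheared and 0.27 in static cells, and histones 1.17 and 0.76. ER genes had 0.48 in sheared and 0.68 in static cells, and MHC class I genes 0.49 and 0.54. For clock genes the sign of the median differed, with 0.46 in sheared and -0.11 in static cells. None of the 17 clock genes tested passed the threshold of the difference.

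The difference itself passed the threshold for 12 of 14759 genes (0.0813%), 10 with a higher (0.0678%) and 2 with a lower (0.0136%) change in sheared than in static cells. At an unadjusted p below 0.05 there were 502 (3.4%) and 348 (2.36%). Of the 10, 9 fell past the threshold in static cells. UBE2C was lower there too but did not pass (static log2 fold change -1.19, adjusted p = 0.0748). None of the 10 passed the threshold in sheared cells. CDK1 had 105, 187 and 593 CPM in sheared 24 h and 287, 268 and 220 CPM in sheared 12 h libraries, and 34.1, 42.5 and 80.9 CPM in static 24 h and 165, 177 and 147 CPM in static 12 h libraries. Its change was 0.18 ± 0.50 in sheared and -1.64 ± 0.26 in static cells, and the difference from the joint fit was 1.56 ± 0.26 (adjusted p = 0.0386). Each sheared library was above the static library of the same pool, at both times. UBE2C, which feeds ubiquitin to the anaphase-promoting complex, had 94.1, 151 and 397 CPM in sheared 24 h and 173, 193 and 170 CPM in sheared 12 h libraries, and 29.9, 32.3 and 89.7 CPM in static 24 h and 113, 113 and 120 CPM in static 12 h libraries. The difference was 1.38 ± 0.20 (adjusted p = 0.0244). KIF14, a kinesin of cytokinesis, had 68.1, 22.8 and 67.4 CPM in sheared 24 h and 119, 102 and 77.2 CPM in sheared 12 h libraries, and 27.7, 10.9 and 24.5 CPM in static 24 h and 97.5, 108 and 72.2 CPM in static 12 h libraries. It had all 24 h libraries below all 12 h libraries in both treatments, by less in sheared cells, with a difference of 1.18 ± 0.20 (adjusted p = 0.0386).

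**Figure D4:**
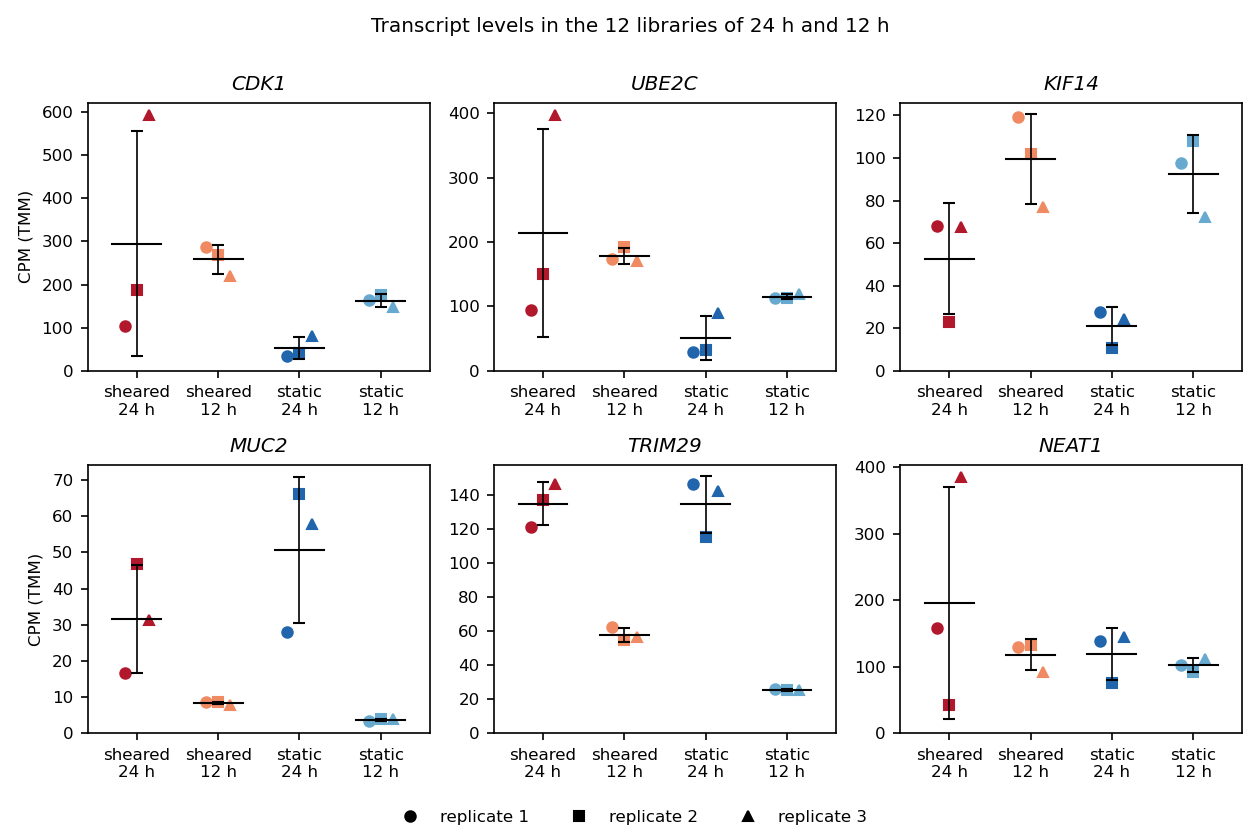
Level in CPM (vertical, from 0) of 5 genes past the threshold of the difference and of NEAT1, in sheared 24 h, sheared 12 h, static 24 h and static 12 h libraries from left to right. Symbols mark the replicate, lines the mean and whiskers the SD of 3 libraries; CDK1, UBE2C and NEAT1 reach 593, 397 and 385 CPM in sheared 24 h replicate 3.

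Further genes with a higher change in sheared cells were the kinetochore genes SKA1 (1.67 ± 0.27) and NUF2 (1.33 ± 0.22), CDCA8 of the chromosomal passenger complex (1.24 ± 0.21) and the spindle pole gene ASPM (1.33 ± 0.24). FAM72A (1.42 ± 0.24) and FAM72B (1.27 ± 0.22) belong to a set of nearly identical copies, so their counts are uncertain and they are not independent. The keratin gene KRT4 had 4.74, 19.0 and 27.9 CPM in sheared 24 h and 24.9, 31.1 and 21.6 CPM in sheared 12 h libraries, and 0.936, 3.37 and 2.10 CPM in static 24 h and 13.3, 12.9 and 16.8 CPM in static 12 h libraries, the largest difference of the 12 at 2.08 ± 0.36 (adjusted p = 0.0428). Of 41 G2/M genes, 4 were among the 10, and the median difference of that list was 1.08, against 0.00 over all genes.

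The 2 genes with a smaller change in sheared cells encode a mucin and a tripartite motif protein. MUC2, a gel-forming mucin of intestinal epithelium, had 16.7, 46.7 and 31.2 CPM in sheared 24 h and 8.47, 8.56 and 7.84 CPM in sheared 12 h libraries, and 27.9, 66.2 and 58.0 CPM in static 24 h and 3.26, 3.86 and 3.79 CPM in static 12 h libraries. The difference was -1.90 ± 0.24 (adjusted p = 0.00768). TRIM29, a basal epithelial gene, had 121, 137 and 146 CPM in sheared 24 h and 62.0, 54.5 and 56.4 CPM in sheared 12 h libraries, and 146, 115 and 142 CPM in static 24 h and 25.9, 25.0 and 25.2 CPM in static 12 h libraries (-1.18 ± 0.19, adjusted p = 0.0386). At 12 h the sheared libraries lay above the static ones for both genes, while at 24 h the treatments overlapped. Within the 3 pools of 24 h, MUC2 was lower in the sheared than in the static library of every pool, and TRIM29 was lower in that of replicate 1 and higher in those of replicates 2 and 3.

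The 12 genes kept their direction under all alternatives run. The calls depended on the pool blocks and on single pools: without blocks 0 genes passed, and without the pool of 12 h replicate 1 or 2 none of the 12 passed, and without that of 12 h replicate 3 only 1 did. Without the pool of 24 h replicate 1, 7 of the 12 passed, among 28 higher and 3 lower. Without the pool of 24 h replicate 3, which stood apart, all 12 passed, among 31 higher and 13 lower, and likewise without that of 24 h replicate 2, among 41 higher and 4 lower.

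**Figure D5:**
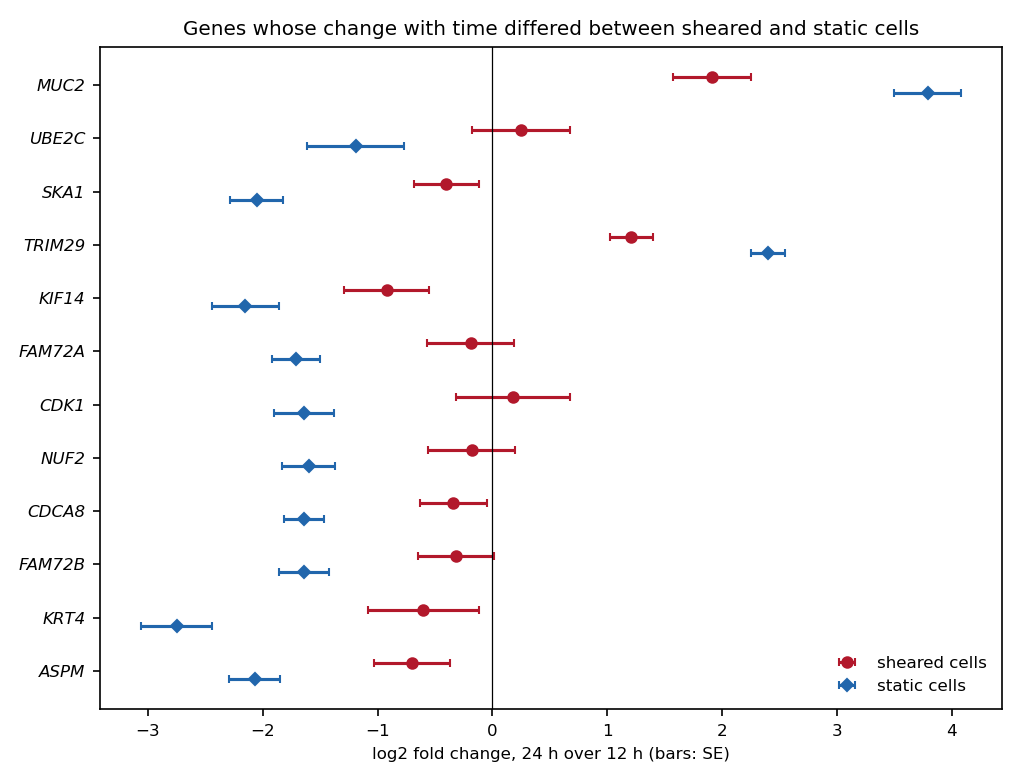
Log2 fold change of 24 h over 12 h (horizontal) of the 12 genes whose change differed, in sheared cells (circles) and static cells (diamonds), with bars for the SE. For MUC2 and TRIM29 the static value lies right of the sheared one, and for the other 10 the static value lies left of the sheared one, as for CDK1 at -1.64 against 0.18.

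The promoters of CDK1 (plus strand, chr10:60778081-60778330) and KIF14 (minus strand, chr1:200620752-200621001) are shown because mitosis genes are known to share CCAAT boxes and CHR elements in their promoters. The 250 bases before each RefSeq start (GRCh38.p14) are given as above, with CCAAT and TTTGAA matches in capitals.
CDK1: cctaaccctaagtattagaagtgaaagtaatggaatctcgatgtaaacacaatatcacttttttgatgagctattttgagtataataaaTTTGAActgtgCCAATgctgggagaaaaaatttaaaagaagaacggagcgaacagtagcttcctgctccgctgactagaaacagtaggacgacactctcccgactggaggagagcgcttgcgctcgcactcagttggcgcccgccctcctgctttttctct
KIF14: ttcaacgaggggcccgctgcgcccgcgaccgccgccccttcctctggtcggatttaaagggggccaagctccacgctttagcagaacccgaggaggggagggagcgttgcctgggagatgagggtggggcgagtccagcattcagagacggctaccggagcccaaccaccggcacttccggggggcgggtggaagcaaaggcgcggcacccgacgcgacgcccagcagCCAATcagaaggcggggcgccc
CDK1 held CCAAT 150 to 146 and TTTGAA 161 to 156 bases before the start, both on the gene's strand, and KIF14 held CCAAT 22 to 18 bases before it. Searched on both strands, CCAAT occurred in 26 of 34 promoters of the G2/M list, in 33.0% of all 27305 promoters and in 34.9% of those of tested genes. TTTGAA, the CHR core, occurred in 16 of the 34, in 13.6% of all promoters and in 8.34% of those of tested genes.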

How the data were processed

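Of the 18 libraries of cytosolic PC-3 RNA, 6 (sheared, 24 h and 12 h) enter the main comparison and 12 the comparison with static cells. The values are raw counts as deposited by the authors, 1 row per NCBI Gene ID, and were not normalized before deposit. STAR, DESeq2 and GRCh38.p13 are named in the submitters' processing notes, and the counter, all versions and the strand setting were not given in the sources used here. Of 28395 Gene IDs, 27745 had a symbol in the RefSeq annotation of GRCh38.p14. The 37 mitochondrially encoded Gene IDs had 0 counts throughout. The 3 h columns were matched to samples by time and letter of the library names and enter only 1 alternative fit.

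Genes were kept by filterByExpr (minimum count 10, minimum total 15). Scaling was by TMM. Genes were tested in edgeR 4.0.16 (R 4.3.3) by its quasi-likelihood F test, in the legacy form and with robust estimation, and p-values were adjusted by Benjamini-Hochberg at 0.05. The main fit held time as its only term, with 4 residual degrees of freedom. The difference fit had a term for each of the 6 pools and 1 shear term for each time, and also left 4. Static cells were fitted as the sheared ones. An SE was computed by dividing the absolute log2 fold change by the root of its F value. Printed CPM use TMM factors over the 12 libraries, and log2 CPM a prior count of 2. An exact permutation of 3 against 3 cannot give a p below 0.1, so none was made. Fits were also run on simulated data, drawn with the same spread per gene at both times. The wider spread at 24 h was thus not simulated, and no result here rests on that run. Alternatives used DESeq2 1.42.0, limma 3.58.1, other scaling, no filter, blocks and left-out libraries.

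Pairing was checked by correlating deviations from the group mean in log2 CPM across genes. For the 2 libraries of 1 pool the correlations were 0.28, -0.178 and 0.202 at 12 h and 0.46, 0.537 and 0.401 at 24 h. For a sheared and a static library of different pools they ran from -0.418 to 0.276 at 12 h and from -0.315 to -0.0963 at 24 h. The pools thus stood out at 24 h but not at 12 h. The labels state the pairing by pool at both times, so the pools were kept as blocks. Pools of 24 h and 12 h are independent per the labels.

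Named genes were the calls, the smallest p-values of the difference, up to 4 members of each gene list by p, and 13 genes always named, among them MALAT1, NEAT1, CDK1, HMGCS1, SQLE, ISG15, CCN2, ATF3, VIM, CDH1, HK2 and SLC7A11. PLAU, CEACAM1, AKR1C relatives and TMED10 belong to lists or were added as relatives of called genes, and the other genes of the difference were named because they passed its threshold. The members and the 36 lists were chosen with earlier results of these data known, and tests on single lists were not made. Promoters came from RefSeq (GRCh38.p14), whose table holds no entry for UBE2C.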

Additional observations from a re-analysis of the deposited data

Results flagged for a closer look

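The change with time differed between sheared and static cells for 12 genes by the test of the difference itself. This difference is the log2 fold change of 24 h over 12 h in sheared cells minus that in static cells, estimated in the joint fit with pool blocks. It was positive for KRT4 (2.08), SKA1 (1.67), CDK1 (1.56), FAM72A (1.42), UBE2C (1.38), NUF2 (1.33), ASPM (1.33), FAM72B (1.27), CDCA8 (1.24) and KIF14 (1.18). It was negative for MUC2 (-1.90) and TRIM29 (-1.18). The 12 adjusted p-values ran between 0.00768 and 0.0428 (edgeR).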

How the results depend on the processing

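The 9 genes past the threshold kept their direction under all 13 alternatives, while the number of genes called depended strongly on the setting. With 8 higher and 1 lower in the main test, upper-quartile factors gave 13 and 1, no filter on low counts 100 and 21, DESeq2 343 and 131, limma voom with quality weights 74 and 6, and a fit of all 9 sheared libraries 257 and 117. That last fit called 8 of the 9 genes (edgeR adjusted p up to 0.0699), and the others called all 9. With 1 library left out the counts ran from 0 to 248 higher and from 0 to 51 lower. The fits without a 12 h library or 24 h replicate 1 gave 0 calls, with 701 to 1295 genes higher and 437 to 1281 lower at an unadjusted p below 0.05. The replicate number as a block gave 0 higher and 0 lower, with 725 and 692 at an unadjusted p below 0.05. The same-numbered 24 h and 12 h libraries did not deviate together (correlations 0.00734, -0.115 and -0.46). The highest value of any 24 h with any 12 h library was 0.451, for 24 h replicate 2 and 12 h replicate 3. Those libraries share the letter C in their names, which was not used as a block. Per the labels no pool spans both times. For the difference from static cells, with 10 higher and 2 lower, no replicate block gave 0 and 0 (283 and 102 at an unadjusted p below 0.05), no filter 147 and 29, and DESeq2 91 and 12. With 1 pool left out it gave 0 to 41 higher and 0 to 13 lower. The cause of these shifts was not tested.

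Of 116 genes followed, 10 reversed in at least 1 setting, none of them called in sheared cells. With voom weights, UBE2C was at -0.20, CDK1 at -0.39 and MALAT1 at -0.38, and with the replicate block at -0.03, -0.22 and -0.44. MALAT1 was at -0.01 with upper-quartile factors. With 1 library left out, UBE2C ran from -0.56 to 0.61, FAM72A from -0.82 to 0.14, NUF2 from -0.87 to 0.10, CDK1 from -0.84 to 0.59, MALAT1 from -0.86 to 0.55, NEAT1 from -0.24 to 1.22, CCN2 from -0.61 to 0.31, VIM from -0.20 to 0.97, HK2 from -0.86 to 0.14 and SLC7A11 from -0.05 to 0.78. Depth limits scarce genes such as TMED10P1, at 1.38 to 1.98 CPM in the 24 h libraries.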

Other observations

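Matrix and lysosome genes were among several further lists whose share wholly above 12 h exceeded the 11.5% of all genes tested. Others were cytosolic ribosomal proteins (23 of 74, 31.1%, median 0.22), membrane repair genes (30%) and integrins (28.6%). Of 25 collagen and laminin chain genes tested, 9 (36%) had all 24 h libraries above all 12 h libraries, and the list's median was 0.44. LAMB2, a laminin chain of basement membranes, had 125, 112 and 142 CPM at 24 h and 56.4, 73.0 and 53.6 CPM at 12 h (adjusted p = 0.110). COL17A1, a hemidesmosomal collagen, had 19.2, 22.0 and 20.4 CPM at 24 h and 10.0, 8.37 and 10.1 CPM at 12 h (adjusted p = 0.112). Their integrin partner ITGB4 had 3580, 2180 and 3660 CPM at 24 h and 1420, 1770 and 797 CPM at 12 h (adjusted p = 0.152). Of 31 lysosome and autophagy genes, 9 (29%) lay wholly above 12 h, with a median of 0.43. CTSD, a lysosomal protease, had 499, 772 and 821 CPM at 24 h and 333, 401 and 316 CPM at 12 h (adjusted p = 0.140). The clock repressor NR1D1 had 19.0, 15.9 and 26.1 CPM at 24 h and 10.1, 7.39 and 7.01 CPM at 12 h, and CRY1, another clock repressor, had 18.2, 14.1 and 11.1 CPM at 24 h and 24.5, 22.0 and 22.4 CPM at 12 h. The 2 clock genes thus lay on opposite sides without overlap, at adjusted p-values of 0.121 and 0.259. CDKN2A, which encodes the CDK inhibitor p16, had 190, 181 and 269 CPM at 24 h and 92.2, 97.8 and 87.2 CPM at 12 h (adjusted p = 0.0918).

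Ribosome biogenesis was the list, besides the cell cycle, YAP/TAZ and nuclear RNA lists and the heat shock list, with a negative median. Of 34 genes of ribosome biogenesis, 4 (11.8%) lay wholly below 12 h, near the 11% of all genes tested, and 1 wholly above, and the median was -0.29, with -0.30, 0.16 and -0.63 in 24 h replicates 1, 2 and 3. POLR1A, the large subunit of RNA polymerase I, had 9.61, 14.1 and 5.68 CPM at 24 h and 18.5, 22.2 and 27.8 CPM at 12 h (adjusted p = 0.159). None of the genes in the matrix, lysosome and ribosome biogenesis lists passed the threshold of the edgeR test. At an unadjusted p below 0.05, 8 matrix and 9 lysosome genes were higher and 4 ribosome biogenesis genes lower, and DESeq2 called 5 and 2 higher and 1 lower. Over all genes tested, 8.22% were higher and 6.65% lower by that p, and DESeq2 called 2.42% higher and 0.923% lower.

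Among well expressed genes the widest ranges within the sheared 24 h group were those of KRT17, CXCL8 and DUSP1, genes chosen here by their values. The keratin gene KRT17 had 50.8, 6.27 and 261 CPM at 24 h and 39.7, 28.5 and 20 CPM at 12 h. The chemokine gene CXCL8 had 1230, 314 and 6810 CPM at 24 h and 2430, 2140 and 1000 CPM at 12 h. DUSP1, a phosphatase that switches off stress kinases, had 59.1, 21.4 and 467 CPM at 24 h and 98.9, 98.5 and 37.0 CPM at 12 h. All 3 were highest in replicate 3 and lowest in replicate 2 of 24 h. Of the 1205 genes that varied at least 2-fold among these replicates, 661 were highest in replicate 3 and 667 lowest in replicate 2.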
